A study of Mus musculus with 8 samples.

Results

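The enzymes that break down the branched chain amino acids leucine, isoleucine and valine were examined in mouse inguinal white adipose tissue, a subcutaneous fat depot of the groin. The set holds 10 genes, named by their function in this route: the transaminases Bcat1 and Bcat2, the dehydrogenase subunits Bckdha, Bckdhb and Dbt, the kinase Bckdk and phosphatase Ppm1k that control that dehydrogenase, and the later enzymes Ivd, Hibch and Hibadh. They were found through the RefSeq accessions of the array's probes, which gave 13 probes for the 10 genes, out of 55681 probes on the array. All 10 genes were among the 14730 genes tested. Of the 10 genes 8 had 1 probe, Ppm1k had 2 and Bcat1 had 3.

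There were 4 control and 4 Senp2-aKO samples of RNA, each read on 1 single-colour Agilent array. Control mice are labelled Senp2flox/flox alone, with no Cre named. Senp2-aKO mice carried Senp2flox/flox with Adipoq Cre, a Cre recombinase under the adiponectin promoter, which is active in adipocytes and leaves Senp2, a protease that removes the protein SUMO, intact in the other cells of the pad. Mice of both groups ate a diet with 58 kcal% fat for 12 weeks from the age of 8 weeks, so that no lean animals are among them. The labels do not say whether each sample is a separate animal, and if not, the p-values measure only the spread between these samples.

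Levels are log2 signals relative to the 75th percentile of the array, so that 0 is that percentile and 1 unit is a doubling. Every comparison below is of 4 control with 4 Senp2-aKO arrays, and adjusted p-values from limma are over all 14730 genes unless another number is named. The signal of Senp2 itself in Senp2-aKO samples was 82.8% of that in controls (73.3 to 93.6 as a 95% interval; adjusted p = 0.0507 by limma), with all 4 Senp2-aKO arrays below all 4 controls. The adipocyte genes Adipoq and Plin1 were well above background on 8 of 8 arrays. The 75th percentile of the signal was 408 to 446 on control arrays and 324 to 382 on Senp2-aKO arrays, and no spot was saturated. The mean level of 20 skeletal muscle genes ranged from -2.43 to 0.88 in controls and from 2.40 to 3.95 in Senp2-aKO samples, and that of 10 brown and beige fat genes from 0.14 to 0.91 and from 2.79 to 4.15. One Senp2-aKO array, aKO 2, had mean levels of 1.48 and 2.41 for B and T lymphocyte genes, against at most -2.695 and -0.36 on the other Senp2-aKO arrays. Less RNA per cell and fewer cells of a type cannot be told apart in whole tissue.

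Branched chain amino acids cannot be made by mammals, and fat is among the tissues that take up and oxidise them. A transaminase first removes the amino group, cytosolic Bcat1 or mitochondrial Bcat2, and the resulting keto acids are then committed by the branched chain ketoacid dehydrogenase, a mitochondrial complex of Bckdha, Bckdhb, Dbt and the shared subunit Dld. Bckdk switches the complex off by phosphorylating Bckdha, and Ppm1k switches it on again. Beyond it the routes part: Ivd acts on the leucine branch, and Hibch and Hibadh on the valine branch. Their products enter the tricarboxylic acid cycle or lipid synthesis, and in brown fat this route supplies fuel for heat production.

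Promoter sequences, the 250 bases before an annotated start, were taken from RefSeq (GRCm38.p6) for the 2 genes of the set that passed the test, to show which of the motifs searched lie there. The sequence for Hibch is chr1:52844788-52845037 on the plus strand, and that for Bckdhb is chr9:83924887-83925136 on the plus strand. Capitals mark GC boxes, written GGGCGG on either strand, some of which overlap by a base.
Hibch: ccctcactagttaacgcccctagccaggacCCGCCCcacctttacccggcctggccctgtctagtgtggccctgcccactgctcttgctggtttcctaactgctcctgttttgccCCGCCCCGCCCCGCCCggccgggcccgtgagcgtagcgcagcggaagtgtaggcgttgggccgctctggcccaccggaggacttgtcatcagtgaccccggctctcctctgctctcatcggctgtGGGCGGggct
Bckdhb: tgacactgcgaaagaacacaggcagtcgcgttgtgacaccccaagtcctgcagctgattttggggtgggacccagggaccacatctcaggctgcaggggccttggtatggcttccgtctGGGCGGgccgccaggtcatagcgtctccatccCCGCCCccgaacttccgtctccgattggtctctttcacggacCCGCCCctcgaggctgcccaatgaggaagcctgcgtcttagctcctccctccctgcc
The Hibch window held 5 GC boxes and that of Bckdhb 3. A second Bckdhb start has a window with 0 GC boxes and a GC content of 36.4%, against 63.2% in the one shown. GC boxes were found in 4 of the 12 windows of 9 genes, those of Hibch, Hibadh, Ppm1k and Bckdhb, and in 32.7% of all 32851 windows. The GC box was added after the data were seen. The C/EBP motif TTGCNNAA was found in 0 of the 12 windows and in 9.56% of all windows, counting both strands. The nuclear receptor direct repeat, 2 copies of AGGTCA with 1 base between them, and the motif TCAAGGTCA of estrogen-related receptors, which share those letters, were in 0 of the 12 and in 0.0335% and 0.387% of all windows. Dbt has no window in the table used.

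The question of the comparison was whether loss of Senp2 in adipocytes altered the tissue's transcripts, here those for branched chain amino acid breakdown. Of the 10 genes, 2 rose in Senp2-aKO fat, Bckdhb and Hibch, and 0 fell (limma, adjusted p under 0.05). Over all genes tested, 7.29% rose and 7.12% fell. At an unadjusted p under 0.05, 4 of the 10 were higher, against 14.7% of all genes, and 0 were lower, against 17.6%. By single probes, of which 5.48% rose and 4.35% fell over the array, 1 of the 13 rose, that of Bckdhb (adjusted p = 0.0182 by limma over 30508 kept probes), and 0 fell. The median log2 fold change of the 10 genes was 0.34, from -0.07 for Bcat1 to 1.05 for Bckdhb, against -0.02 over all genes. A positive value was seen in 9 of the 10, against 47.3% of all genes. In 4 of the 10, Bckdhb, Hibch, Dbt and Ppm1k, all Senp2-aKO arrays lay above all controls, against 11.2% of all genes, and in 0 of them all lay below, against 15.1%. On leaving out 1 array the median ran from 0.24, without control 3, to 0.38, without aKO 3. Under quantile normalisation the median was 0.25. Hibadh was at 0.15 there, against 0.25 in the reported fit, and Bckdk at 0.16 in both.

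**Figure D1:**
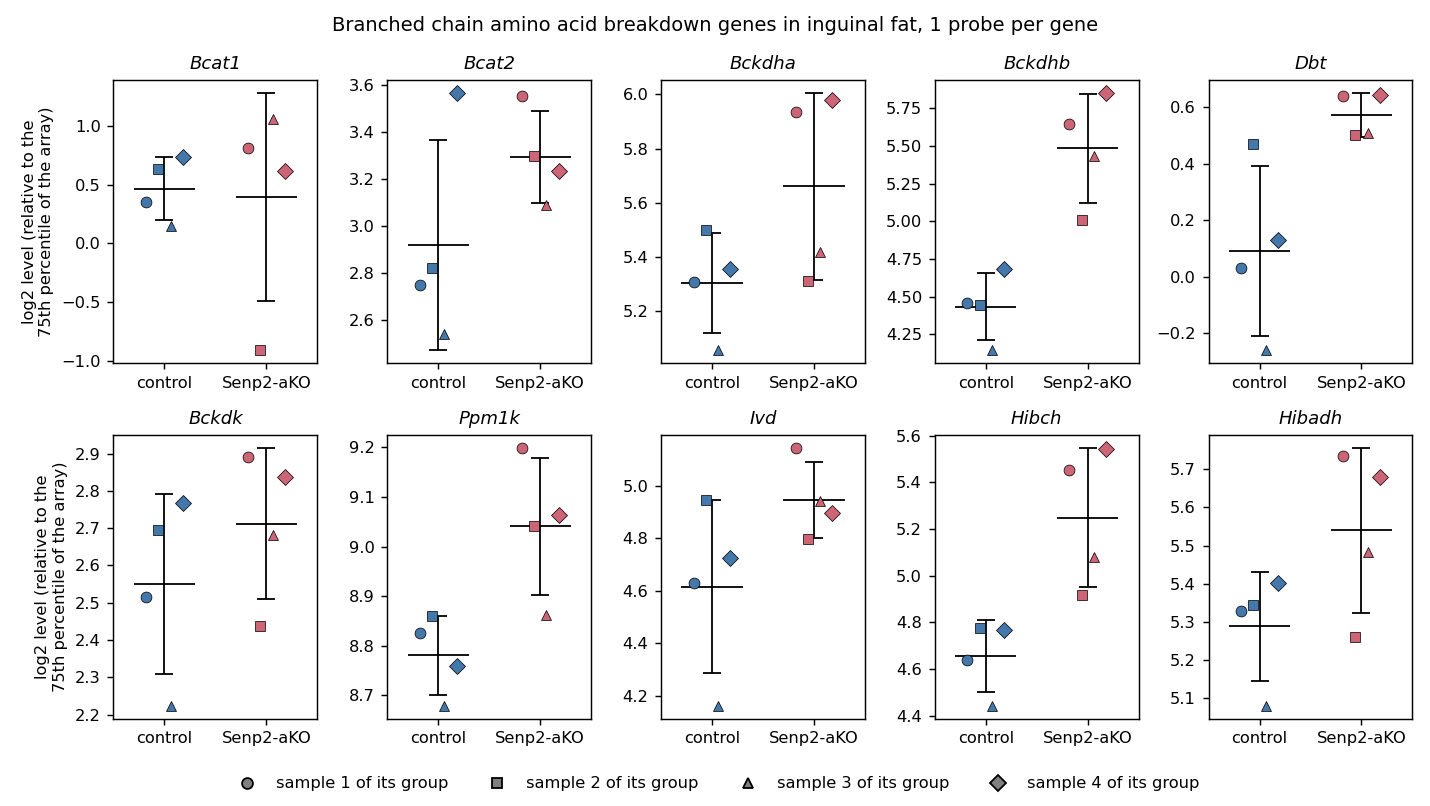
Log2 level (vertical axis, relative to the 75th percentile of the array) of each of the 10 genes on 4 control (blue) and 4 Senp2-aKO (red) arrays, by the brightest probe. Each symbol shape is 1 sample number of a group, lines are means and bars 1 SD; axes differ between panels and do not start at 0. The groups are apart for Bckdhb, Dbt, Ppm1k and Hibch, and the triangle of control 3 is the lowest control in all 10 panels.

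The dehydrogenase complex held the largest change of the set. Bckdhb, the beta chain of its decarboxylase, had log2 levels of 4.46, 4.45, 4.15 and 4.68 in controls 1 to 4 and of 5.64, 5.01, 5.43 and 5.85 in aKO 1 to 4. The groups were 0.32 apart at their nearest arrays, control 4 and aKO 2. Bckdhb rose 2.07-fold (1.52 to 2.82 as a 95% interval; log2 fold change 1.05 with an SE of 0.19, adjusted p = 0.0144 by limma), and 3.71% of all genes had a larger log2 fold change. It was the only one of the 10 genes called in all 8 omissions of 1 array (adjusted p from 0.00738 to 0.0476).

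Its partner in the decarboxylase, Bckdha, the alpha chain that carries the phosphorylation sites, had levels of 5.31, 5.50, 5.06 and 5.35 in controls and of 5.93, 5.31, 5.42 and 5.98 in Senp2-aKO samples. The values of aKO 2 and aKO 3 lay among the controls, and the gene did not pass (log2 fold change 0.36 with an SE of 0.18, adjusted p = 0.214 by limma). Dbt, the transacylase core, had levels of 0.03, 0.47, -0.26 and 0.13 in controls and of 0.64, 0.50, 0.51 and 0.64 in Senp2-aKO samples. The Senp2-aKO values were close together (SD 0.08, against 0.30 in controls) and lay above all controls, by 0.03 at the nearest. Dbt did not pass (log2 fold change 0.48 with an SE of 0.15, adjusted p = 0.0675 by limma), and it did without control 2 (adjusted p = 0.0357).

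Whether the beta chain changed more than its partners was asked within each array, where the scale of the array cancels. Bckdhb had the largest change of the set and the same values enter here, so the pairs are not separate support for its rise. Bckdha minus Dbt was not tested. The log2 level of Bckdhb minus that of Bckdha was -0.85, -1.05, -0.91 and -0.67 in controls and -0.29, -0.31, 0.01 and -0.13 in Senp2-aKO samples. All Senp2-aKO arrays lay above all controls, by a mean of 0.69 (exact permutation p = 0.0286, two-sided, the smallest that 70 assignments allow; 0.0714 adjusted over 5 pairs). These differences have no meaning as relative amounts, since probes differ in brightness, and only their change between groups was read. Against Dbt the change was 0.57, with overlap of aKO 2 and control 4 (exact permutation p = 0.0571, adjusted 0.0952). Without aKO 2 the adjusted exact permutation p was 0.0476 for either pair, with changes of 0.74 and 0.70. This was the only 1 of 8 omissions in which either pair passed. The adjusted value depends on how many of the 5 pairs reach the smallest p, so it does not show stronger evidence. For Bckdhb minus Dbt it was 0.143 without control 1, control 2, control 3 or aKO 4.

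**Figure D2:**
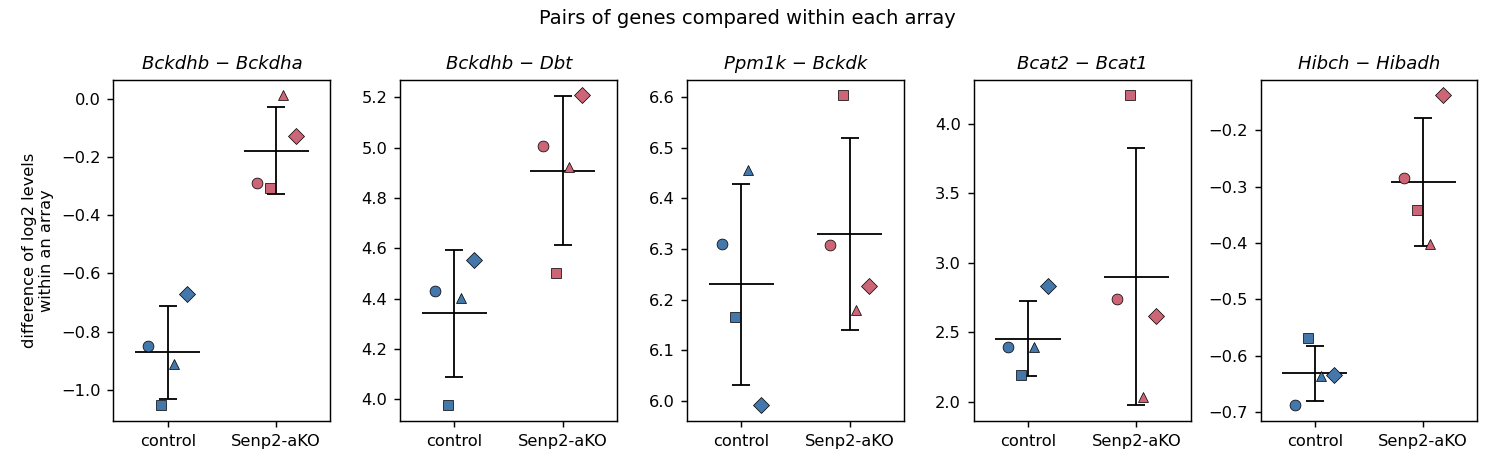
Difference of the log2 levels of 2 genes within an array (vertical axis) for 5 pairs, in 4 control (blue) and 4 Senp2-aKO (red) arrays; symbol shapes are the sample numbers 1 (circle), 2 (square), 3 (triangle) and 4 (diamond), lines are means and bars 1 SD. The groups are apart for Bckdhb minus Bckdha and for Hibch minus Hibadh and overlap in the other 3 pairs.

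The regulators of the complex gave smaller values. Bckdk, the inhibiting kinase, had levels of 2.52, 2.70, 2.22 and 2.77 in controls and of 2.89, 2.44, 2.68 and 2.84 in Senp2-aKO samples. The groups overlapped widely and the gene did not pass (log2 fold change 0.16, 95% interval -0.19 to 0.51, adjusted p = 0.501 by limma). Its value was 0.05 without control 3, 0.10 without aKO 1 and 0.25 without aKO 2. Ppm1k, the activating phosphatase, was read by 2 probes. Its brighter probe had levels of 8.82, 8.86, 8.68 and 8.76 in controls and of 9.20, 9.04, 8.86 and 9.06 in Senp2-aKO samples. The groups were 0.002 apart and the gene did not pass (log2 fold change 0.26 with an SE of 0.10, adjusted p = 0.110 by limma).

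The value of Ppm1k depended on the scaling and on the probe. Before scaling, the signal of the brighter probe was 177910 to 190670 in controls and 175840 to 190630 in Senp2-aKO samples, a log2 difference of -0.01. The 75th percentiles that set the scale differed by 0.27 on the log2 scale, and that difference enters the value of every gene. Only 34 of 30508 kept probes were brighter. Under quantile normalisation its log2 fold change was 0.01 (adjusted p = 0.932 by limma). The dimmer Ppm1k probe had levels of -1.68, -1.61, -1.69 and -1.52 in controls and of -0.74, -0.76, -1.42 and -1.53 in Senp2-aKO samples. Here aKO 1 and aKO 2 stood above all other arrays and aKO 4 lay among the controls (log2 fold change 0.52 with an SE of 0.20, over all kept probes, adjusted p = 0.133 by limma). Phosphatase minus kinase changed by 0.10 within arrays with the brighter probe (exact permutation p = 0.486, adjusted 0.514 over 5 pairs). It changed by 0.36 with the dimmer probe, by -0.15 under quantile normalisation, by 0.02 without control 4 and by 0.008 without aKO 2, so that its direction depended on the scaling.

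At the first step, neither transaminase passed. Bcat2, the mitochondrial form, had levels of 2.75, 2.82, 2.54 and 3.57 in controls and of 3.55, 3.30, 3.09 and 3.23 in Senp2-aKO samples. Control 4 was the highest of all 8 arrays, while the other 3 controls were the lowest of them. The log2 fold change was 0.37 with an SE of 0.22 (adjusted p = 0.278 by limma), and without control 4 it was 0.59 and passed (adjusted p = 0.0484). Without control 3 it was 0.25. Bcat1, the cytosolic form, had levels of 0.35, 0.63, 0.15 and 0.73 in controls and of 0.82, -0.91, 1.06 and 0.62 in Senp2-aKO samples.

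Bcat1 was low on aKO 2 by all 3 of its probes, which read -0.91, -1.81 and -2.27 there. The lowest level on any other array was 0.15, -1.03 and -1.90 by the same probes. Its log2 fold change was -0.07 with an SE of 0.40 (adjusted p = 0.922 by limma), and 0.36 without aKO 2 (SE 0.17, adjusted p = 0.172). The mean of its probes gave 0.03. The lymphocyte genes were highest on the same array, and their part in the Bcat1 value was not tested. Bcat2 minus Bcat1 changed by 0.44 within arrays (exact permutation p = 0.514, adjusted 0.514 over 5 pairs), and by 0.01 without aKO 2.

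On the valine branch, Hibch, which frees 3-hydroxyisobutyrate from coenzyme A, had levels of 4.64, 4.77, 4.44 and 4.77 in controls and of 5.45, 4.92, 5.08 and 5.54 in Senp2-aKO samples. All Senp2-aKO arrays lay above all controls, by 0.14 at the nearest. Hibch rose 1.51-fold (1.17 to 1.94 as a 95% interval; log2 fold change 0.59 with an SE of 0.16, adjusted p = 0.0441 by limma). The call ended without control 1, control 2, control 3 or control 4 (adjusted p = 0.109, 0.0780, 0.114 and 0.0795) and without aKO 1 or aKO 4 (0.101 and 0.0944). It held without aKO 2 (0.0200) and without aKO 3 (0.0476). The call also ended with no filter on background (0.0708), with adjustment over all kept probes (0.0562) and with the muscle mean as a covariate (0.393).

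Hibadh, the next enzyme, which oxidises the product of Hibch, had levels of 5.33, 5.34, 5.08 and 5.40 in controls and of 5.74, 5.26, 5.48 and 5.68 in Senp2-aKO samples. Only aKO 2 lay among the controls, and the gene did not pass (log2 fold change 0.25 with an SE of 0.13, adjusted p = 0.222 by limma). Hibch minus Hibadh was -0.69 to -0.57 in controls and -0.40 to -0.14 in Senp2-aKO samples, with no overlap. The change of 0.34 had an exact permutation p = 0.0286 (adjusted 0.0714 over 5 pairs). It uses the same Hibch values as the call above, so it is not separate support for that call. The adjusted value was 0.0476 in 1 of 8 omissions, that of aKO 2, and 0.0714 in the others. On the leucine branch Ivd, isovaleryl-CoA dehydrogenase, had levels of 4.63, 4.95, 4.16 and 4.73 in controls and of 5.14, 4.80, 4.94 and 4.90 in Senp2-aKO samples. Control 2 exceeded 3 of the 4 Senp2-aKO arrays, and the gene did not pass (log2 fold change 0.33 with an SE of 0.17, adjusted p = 0.219 by limma). Without control 3 the value of Ivd was 0.18.

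Another 20 genes of the route, all measured, were taken from a list. It was chosen with earlier results of these data known, so its counts are a description. Of these 1 rose and 0 fell (limma), against 7.29% and 7.12% of all genes, so that the share that rose was near that of all genes. At an unadjusted p under 0.05, 6 were higher and 0 lower, against 14.7% and 17.6%. Their median log2 fold change was 0.26. The count of 1 became 0 without any control, aKO 1 or aKO 4, where 2.95% to 4.7% of all genes rose. Without aKO 2, 4 genes of the list rose, against 9.21% of all genes. In the other 19, values ran from -0.33 for Mmab, an enzyme of cobalamin handling, to 0.59 for Hadha, a subunit of the trifunctional protein, and 17 were positive, where 47.3% of all genes were. Dld, the subunit that the complex shares with other dehydrogenases, was at 0.37 with an SE of 0.19 (adjusted p = 0.213 by limma). The mitochondrial branched chain amino acid carrier Slc25a44 was at 0.005 with an SE of 0.14 (adjusted p = 0.986 by limma).

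**Figure D3:**
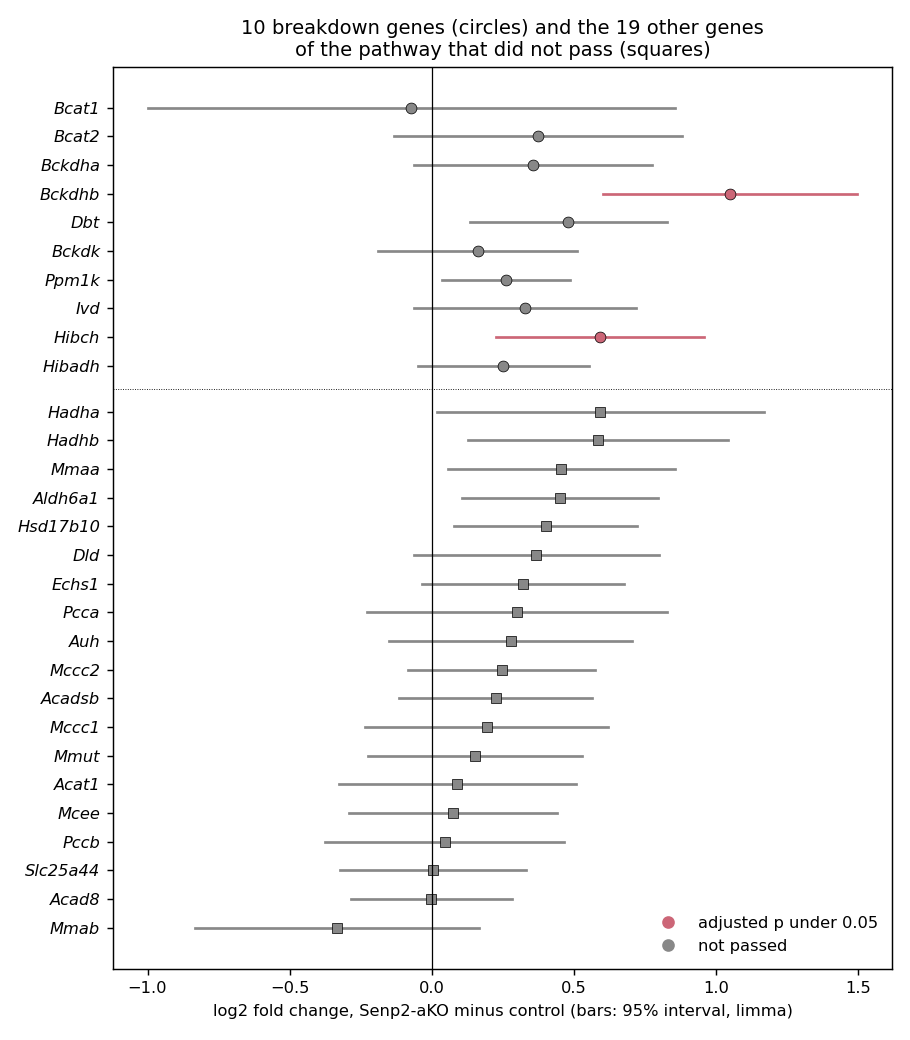
Log2 fold change (horizontal axis, Senp2-aKO minus control) with its 95% interval from limma for the 10 genes (circles, in the order of the route) and the 19 other genes of the pathway that did not pass (squares, sorted). Bckdhb and Hibch, in red, passed, and 9 of the 10 circles and 17 of the 19 squares lie to the right of 0.

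Within each group most of the genes were lowest on the same array. Control 3 was the lowest control for 10 of the 10 genes and for 18 of the other 20, against 34.9% of all genes. Among Senp2-aKO arrays, aKO 2 was the lowest for 8 of the 10, with aKO 3 for Bcat2 and Ppm1k, and for 18 of the other 20, against 46.3% of all genes. At the top, the highest control was control 2 for 5 of the 10 and control 4 for 5, against 27.8% and 27.5% of all genes. For the other 20 it was control 4 for 14, control 2 for 5 and control 3 for 1. The highest Senp2-aKO array was aKO 1 for 5 of the 10, aKO 4 for 4 and aKO 3 for 1, against 28.4%, 21.8% and 24.4%. For the other 20 it was aKO 4 for 11 and aKO 1 for 9. Control 3 and aKO 2 also had the lowest mean of 12 adipocyte genes in their group, 6.95 on control 3 against 7.08 to 7.19 on the other controls, and 6.78 on aKO 2 against 6.97 to 7.23. That mean did not separate the groups (control 7.09 ± 0.11, Senp2-aKO 7.04 ± 0.20, mean ± SD; p = 0.714 by exact permutation). Under quantile normalisation control 3 was the lowest control for 9 of the 10.

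Skeletal muscle also expresses these enzymes, and 17 of 20 muscle genes and 8 of 10 brown and beige fat genes rose on the same arrays. Their defining genes Ckm and Ucp1 were above background on all 8 arrays. Within the controls, the muscle mean was -2.34 and -2.43 on controls 1 and 2 and 0.88 and 0.12 on controls 3 and 4. Bckdhb was at 4.46 and 4.45 on the former and at 4.15 and 4.68 on the latter, and Hibch at 4.64 and 4.77 against 4.44 and 4.77. Among Senp2-aKO arrays, aKO 3 had the highest muscle mean, 3.95, with Bckdhb at 5.43, and aKO 1 the lowest, 2.40, with Bckdhb at 5.64. Between them, aKO 4 had a muscle mean of 3.30 and the highest Bckdhb, 5.85, and aKO 2 a muscle mean of 3.18 and the lowest Bckdhb of that group, 5.01. With the muscle mean as a covariate, the log2 fold change of Bckdhb was 1.23 with an SE of 0.43, and it did not pass (adjusted p = 0.356 by limma). In that fit 0 of the 10 genes passed, and over all genes 1 rose and 0 fell. At an unadjusted p under 0.05, 5 of the 10 were higher, against 6.76% of all genes. The median log2 fold change of the 10 was 0.67 there, against 0.34 without the covariate, and Ivd moved from 0.33 to 0.91 with an SE of 0.30. Since the muscle mean itself separates the groups, the covariate widens the errors, and muscle and genotype cannot be told apart by it. The mean of the brown and beige genes, which also separates the groups, was 0.14, 0.91, 0.19 and 0.75 on controls 1 to 4. On aKO 1 to 4 it was 3.12, 3.23, 2.79 and 4.15. It was highest on aKO 4, as were Bckdhb and Hibch, while aKO 2, next in that mean, was the lowest of its group for both genes. Among controls it was highest on control 2, as was Hibch but not Bckdhb. The part of the brown and beige genes was not tested.

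**Figure D4:**
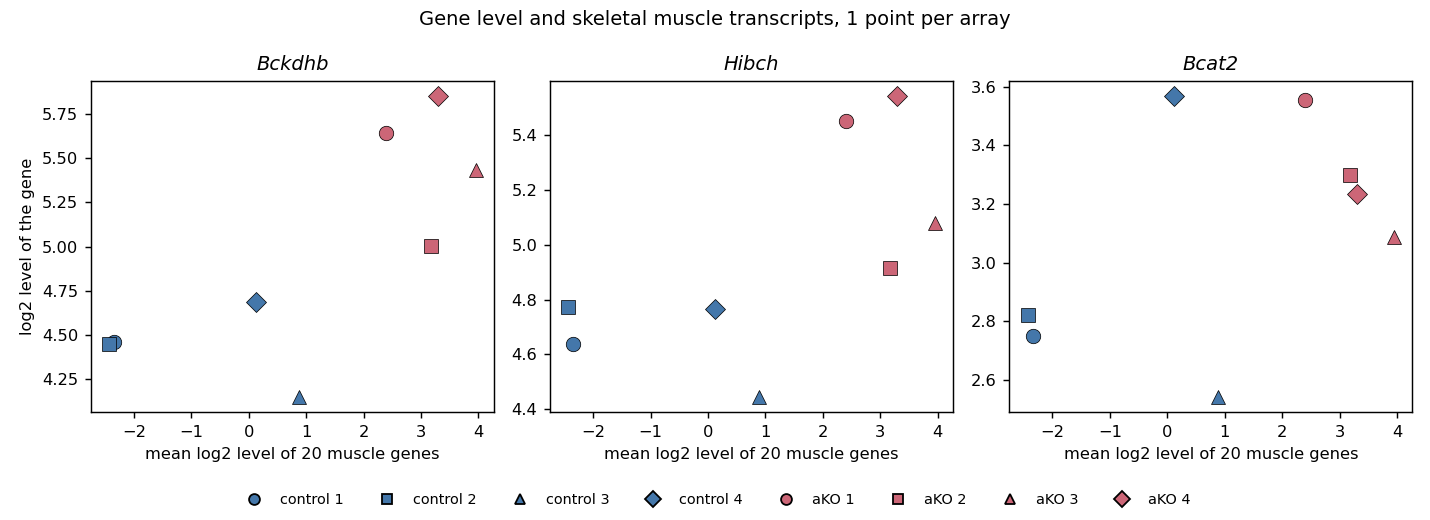
Log2 level of Bckdhb, Hibch and Bcat2 (vertical axes) against the mean log2 level of 20 skeletal muscle genes (horizontal axis), 1 point per array, controls in blue and Senp2-aKO in red. Controls 3 and 4 lie to the right of controls 1 and 2 in muscle level, with Bckdhb at 4.15 and 4.68 against 4.46 and 4.45.

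The genes with the most similar patterns were found by the root mean square difference between centred log2 levels over the 8 arrays, among 14729 other genes, for the genes that passed. For Bckdhb these were Tafa5, Dnajb3 and Procr, at 0.15, 0.16 and 0.16, against a median of 0.63 over all genes. For Hibch, Idh3g and Eci1 are named, at 0.05 and 0.06, against a median of 0.43. Idh3g encodes a subunit of an enzyme of the tricarboxylic acid cycle and Eci1 an enzyme of fatty acid oxidation. None of the genes named here, for Bckdhb or for Hibch, is in either list of the route, and a shared function was not tested. Their log2 fold changes were 0.57 and 0.64, and only that of Eci1 passed (adjusted p = 0.0804 and 0.0358 by limma). Those of Tafa5, Dnajb3 and Procr were 0.97, 1.20 and 1.01. Since patterns were matched over arrays of both groups, the selection itself sets these values near that of the matched gene. They are a description and no support for either call.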

How the data were processed

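Agilent Feature Extraction 11.5.1 made the spot values, per the submitters' processing notes. The deposited signals are intensity values that were background-subtracted and detrended within an array and not scaled across arrays, per the file headers. Deposited flags mark outlier, saturated and well-above-background spots as 0 or 1. The deposited matrix was not used, since its 8 columns match no label.

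Log2 signals were set relative to the array's 75th percentile, and spots of a probe were averaged without outlier spots. A probe was kept when well above background on at least 4 of 8 arrays, and all 13 probes of the set were on all 8. Names came from RefSeq accessions (GRCm38.p6), and the brightest kept probe stood for a gene. The test was limma 3.58.1 (R 4.3.3) with Benjamini-Hochberg adjustment over 14730 genes, and, for pairs of genes, an exact permutation test over 70 assignments. The limma step was checked on simulated data with independent noise and the control spread in both groups. Such data hold no shared shift of an array and no unequal spread. The 4 arrays per group limit the precision. All arrays lay on 1 slide, with each group in its own row of the slide, so row and group cannot be told apart.

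Named were the 10 genes, Senp2, list genes that passed, up to 2 markers a list and 3 similar patterns per gene that passed; Dld, Mmab, Hadha and Slc25a44 were added after their values were seen. The names and values of 2 genes that this rule selects are not reported here. The genes, from which the pairs were made, and the lists were chosen with earlier results of these data known. Other lists were macrophage (means 2.88 to 3.65 in controls, 3.27 to 3.66 in Senp2-aKO samples), endothelium (1.78 to 2.06 and 1.55 to 2.10), progenitor (4.63 to 5.02 and 4.98 to 5.39) and epithelium genes (-4.38 to -3.57 and -3.64 to -2.36). Alternatives are given at the end.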

Additional observations from a re-analysis of the deposited data

How the results depend on the processing

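Of the 10 genes, 2 rose in the reported fit, where 7.29% of all genes rose. The count was 1 with no filter on background (4.05% of all genes) and 1 with the replicate block (4.92%). It was 1 with adjustment over all kept probes, where 903 genes rose, against 1074 in the reported fit. It was 5 with array weights, where aKO 2 was weighted 0.170 and 12.4% of all genes rose. With the muscle mean as a covariate it was 0, and 5 were higher at an unadjusted p under 0.05, against 6.76% of all genes (limma). The count was 1 to 2 on leaving out 1 array. It was 1 without control 1, control 3, aKO 1 or aKO 4, where 2.95% to 4.4% of all genes rose. Of the other 20 genes 1 rose. That count was 2 with the normexp background model, 8 with array weights and 5 with scaling to the adipocyte list, which was chosen after seeing the data. Over all genes 8.97%, 12.4% and 6.5% rose in those fits. The count was 0 with no filter, with the replicate block and with the muscle covariate. At an unadjusted p under 0.05, 6, 6 and 4 of the 20 were higher there, against 17%, 14% and 6.76% of all genes. On leaving out 1 array the count was 0 to 4. Where it was 0, 3 to 6 genes were higher at an unadjusted p under 0.05, against 11.8% to 13.1% of all genes. In these limma fits 0 genes of either list fell, with at most 1 lower at an unadjusted p under 0.05. Over all probes of the set 1 passed in the reported fit, where 5.48% of all kept probes rose and 4.35% fell. With quantile normalisation, normexp, the stricter filter, array weights or adipocyte scaling 2 passed. Over all genes 7.02%, 8.97%, 7.81%, 12.4% and 6.5% rose in those fits. With the muscle covariate 0 passed (5 at an unadjusted p under 0.05), and over all genes 1 rose and 0 fell. On leaving out 1 array 0 to 2 passed (3 at an unadjusted p under 0.05 where it was 0). The count was 0 without control 1 or control 3, where 2.95% and 3.83% of all genes rose. Shares of all kept probes in these other fits are not given here.

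Over all genes, 1074 rose and 1049 fell. These were 1831 and 1932 with array weights and 1 and 0 with the muscle covariate (996 and 755 at an unadjusted p under 0.05), while fallen genes numbered 689 with no filter, 569 with the replicate block and 628 with adipocyte scaling. On leaving out 1 array 434 to 1356 rose and 280 to 1472 fell, with at most 693 and 606 without any array other than aKO 2 or aKO 3. The paired fit with the replicate block ended the call of Hibch (adjusted p = 0.0698 by limma). The labels do not say that the numbers pair samples, and same-numbered arrays correlated at -0.08 to 0.14 in their deviations from the group means, with 1 of 4 controls closest to its own number. Bcat1 turned positive by the mean of its probes (0.029), with array weights (0.22) and with the muscle covariate (0.000501), and ran from -0.29 to 0.36 on leaving out 1 array. Ppm1k minus Bckdk was -0.15 under quantile normalisation. On leaving out 1 array Bckdhb minus Bckdha changed by 0.63 to 0.76, Bckdhb minus Dbt by 0.45 to 0.70 and Hibch minus Hibadh by 0.29 to 0.38. The pairs were not run with array weights, the block or the covariate. The causes of these shifts were not tested.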

Other observations

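Scaling each array to its mean of 12 adipocyte genes, an alternative chosen after seeing the order of arrays, gave smaller standard errors for 8 of the 10 breakdown genes, all but Bcat2 and Ppm1k, and for 33.9% of all genes. Since the scale was chosen because the same arrays were lowest for both sets of genes, the smaller errors restate that pattern and support nothing further. Bckdhb was at 1.10 with an SE of 0.14 (adjusted p = 0.00905 by limma) and Hibch at 0.65 (SE 0.11, adjusted p = 0.0145). Dbt passed in that fit (0.53, SE 0.14, adjusted p = 0.0488). Of the 10 genes, 7 were higher at an unadjusted p under 0.05, against 4 with the usual scale, and over all genes the shares were 15.2% and 14.7%. Bckdha was at 0.41 with an SE of 0.12, against 0.36 with an SE of 0.18 on the usual scale, and did not pass (adjusted p = 0.0619 by limma). Senp2 was at -0.22 (adjusted p = 0.297 by limma).

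The 34 kept probes brighter than the brighter Ppm1k probe had a median log2 fold change of 0.21, positive in 31, and 0 of them passed (limma). Before scaling their median log2 difference was -0.06, against -0.25 over all kept probes.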
